A study of Mus musculus with 3 samples.

Results

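The nuclear genes of the mitochondrial respiratory chain were described in mouse regulatory T cells. The genes were taken by name and type from the GENCODE M21 annotation. They are protein-coding genes whose symbols begin with Nduf followed by a, b, c, s or v, with Uqcr, with Cox4 to Cox8 or with Atp5, or are Sdha, Sdhb, Sdhc or Sdhd. This rule found 94 of 55536 annotated genes, and of 22028 protein-coding ones. Of these, 75 encode subunits in general use, with 36 in complex I, 4 in complex II, 8 in complex III, 11 in complex IV and 16 in complex V. The name rule also took 8 genes for alternative isoforms of complex IV subunits, the 8 complex I assembly factors Ndufaf1 to Ndufaf8, the supercomplex factor Cox7a2l and the ATP synthase accessory factor Atp5s. The last of the 94 is a second gene ID for Atp5o, to which no read was assigned in any library. Another 13 genes matched by name but are not annotated as protein-coding. They were 12 processed pseudogenes and the noncoding gene Ndufb1-ps, which stood at 121, 114 and 165 TPM.

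The samples were 3 polyA-selected RNA libraries of regulatory T cells labelled as having experienced inflammation. The cells came from 1 male mouse aged 16 weeks. The strain carries a green fluorescent protein and diphtheria toxin receptor cassette at Foxp3, a tamoxifen-activated Cre driven from CD4 and a tdTomato reporter at R26, and there is no other group. The labels give the whole organism as the origin of the cells and do not name a tissue or an inducing agent. The labels call the libraries technical replicates 1, 2 and 3 of 1 biological replicate and name 1 donor, so each ± below is the SD between 3 libraries and does not measure variation between animals. Expected counts on annotated genes were 20942875, 18402479 and 17494966 in libraries 1, 2 and 3. Levels are TPM, a unit of transcript abundance scaled for transcript length and depth.

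The label was checked against marker genes. Foxp3, which defines regulatory T cells, stood at 77.6, 86.2 and 59.2 TPM, and all 5 markers of these cells and all 4 measured T cell markers were detected. Erythroid genes were also present, with Hbb-bs, a beta-globin gene, at 492, 366 and 624 TPM. The summed level of the 5 erythroid markers was 1382, 1091 and 1742 TPM, and the 4 T cell markers summed to 3499, 3397 and 4027 TPM. All 5 erythroid and all 4 T cell markers differed between libraries by the chi-square test used below and were highest in library 3, against 24.3% of all genes tested. The 5 regulatory T cell markers summed to 1754, 1465 and 1422 TPM. All 5 differed between libraries, 3 of them with library 3 lowest, against 29.8% of all genes tested, and 0 with library 3 highest. The 4 B cell markers summed to 67.2, 71.8 and 77.8 TPM, the 4 myeloid markers to 35.2, 34.7 and 24.04 TPM and the 4 CD8 and natural killer markers to 21.2, 25.5 and 22.97 TPM, while the 5 muscle markers summed to 0.44, 1.49 and 0.91 TPM and the 3 testis markers to 0.91, 1.64 and 1.11 TPM. The muscle gene Myh6 and the testis gene Tnp1 were at 0 counts, whereas Tnnt2 of muscle had 4, 18 and 3 counts and Prm1 of testis 5, 7 and 5. The part of other cells in the levels below was not tested, and in bulk RNA fewer cells of a type and less RNA per cell cannot be told apart.

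The respiratory chain lies in the inner mitochondrial membrane. Complex I takes electrons from NADH and complex II from succinate, and both pass them through ubiquinone to complex III, which hands them through cytochrome c to complex IV, where oxygen is reduced. Complexes I, III and IV pump protons, and complex V, the ATP synthase, uses the proton gradient to make ATP. Complexes I, III, IV and V combine nuclear products with a few subunits made inside the organelle, while all subunits of complex II are nuclear. Regulatory T cells are known to rely more on oxidative metabolism than conventional effector T cells do.

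All 75 subunit genes in general use were expressed. Each reached at least 1 TPM in every library, the limit used for detection, and 66 of them reached 100 TPM in every library. Over all 94 genes, 86 were detected, against 47.4% of protein-coding genes. The median of the 75 subunits was 206, 210 and 222 TPM in libraries 1, 2 and 3, against 27.8, 27.2 and 21.8 TPM for the 10436 protein-coding genes detected in every library. Genes of the mitochondrial ribosome had a median of 62.5 TPM, and those of the cytosolic ribosome 693 TPM. The 94 genes together took 1.97, 1.98 and 2.05% of the TPM of all annotated genes.

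**Figure D1:**
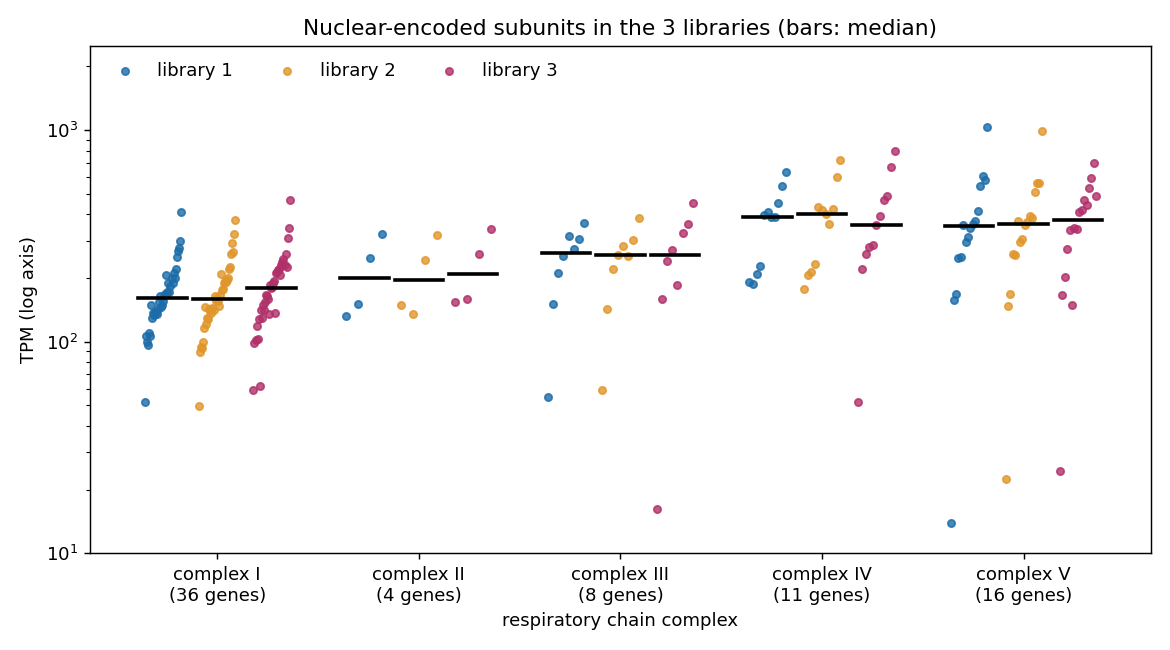
TPM of each nuclear-encoded subunit gene in general use (log axis) by complex, 1 point per gene and library, with black bars at the median of each library. Medians rise from complex I (164 TPM) to complexes V (345 TPM) and IV (394 TPM), and single genes such as Atp5g2, Uqcrfs1 and Ndufb4 lie far below the rest of their complex. Atp5g2 and Ndufb4 share sequence with pseudogenes that were given more TPM than the genes themselves.

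Median levels differed between complexes, while the ranges of their genes overlapped. Gene means ran from 53.6 to 418 TPM in complex I, 145 to 328 in complex II and 43.5 to 400 in complex III. They ran from 141 to 718 TPM in complex IV and from 20.2 to 838 TPM in complex V. The median of the genes' mean TPM was 164 ± 11.9 in complex I, 200 ± 7.39 in complex II, 261 ± 4.56 in complex III, 394 ± 25.4 in complex IV and 345 ± 13.6 in complex V, where the SD is that of the 3 library medians. That SD does not measure the spread among genes. The medians of complexes I, II and III stood in this order in every library. Complexes IV and V changed places, with complex IV above complex V in libraries 1 and 2 (390 against 351 TPM and 403 against 361 TPM) and below it in library 3 (354 against 378 TPM). Their order thus did not hold beyond the spread between libraries. The transcripts were short, with a median length of 620 bases over the 75 subunits against 2262 bases over the detected protein-coding genes, and across the subunits length and TPM had a Spearman rho of -0.27 (n = 75 genes, which share the 3 libraries).

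Within complex I most genes lay close together, with the middle of the distribution between 135 and 201 TPM (quartiles). The 36 genes ran from 53.6 to 418 TPM in the mean, a 7.81-fold range. The 7 genes of the catalytic core had a median of 155 ± 13.9 TPM and the 29 supernumerary subunits, which surround the core, 164 ± 14.1 TPM, a difference smaller than either SD. The highest were all supernumerary, namely Ndufa3 with 411, 378 and 467 TPM, Ndufa7 with 299, 322 and 344 TPM, and Ndufb8 with 277, 266 and 310 TPM. The lowest were Ndufb4 with 51.8, 49.7 and 59.3 TPM, Ndufa12 with 106, 89.1 and 99.1 TPM, and Ndufs1 with 99.9, 94.3 and 101 TPM. The place of Ndufb4 is uncertain, since with the TPM of its pseudogene added, as described below, it came to 237 ± 13.3 TPM. Ndufs1 is the largest core subunit and carries iron-sulfur clusters of the electron path, whereas Ndufb4 and Ndufa12 are supernumerary. The other 30 genes had means from 103 TPM (Ndufb6) to 263 TPM (Ndufa6). Within the core, Ndufs7, which carries the last iron-sulfur cluster before ubiquinone, was the highest with 250.2, 259 and 258 TPM. Ndufv1, which binds NADH, was at 137, 129 and 129.6 TPM, with no overlap between these 2 genes.

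In complex II the catalytic pair stood above the membrane anchors. Sdha, the flavoprotein that oxidises succinate, was at 324, 318 and 341 TPM. Sdhb, the iron-sulfur protein, was at 248, 244 and 260 TPM. Sdhc and Sdhd, which fix the enzyme to the membrane and bind ubiquinone, were at 132, 148 and 154 TPM and at 150, 136 and 160 TPM. The order Sdha, Sdhb and then either anchor held in all 3 libraries, and the anchors overlapped each other.

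In complex III the 5 small subunits had a median of 285 ± 36.6 TPM and the 2 core protein genes with the Rieske protein gene 151 ± 8.55 TPM, with overlap between single genes of the 2 groups. Uqcrh, the acidic hinge protein, was at 365, 384 and 452 TPM, Uqcr10 at 307, 304 and 361 TPM, and Uqcrb, which contributes to ubiquinone binding, at 273, 255 and 327 TPM. The core protein gene Uqcrc2 was at 150, 143 and 160 TPM, and Uqcr11 at 212, 221 and 241 TPM. Uqcrfs1, which encodes the Rieske iron-sulfur protein that passes electrons to cytochrome c1 (chromosome 13, 30540308 to 30545362, minus strand, mm10), was at 54.8, 59.3 and 16.2 TPM, the lowest of the 8 genes in every library. It has 1 annotated transcript, of 1363 bases. Uqcrc1, the other core protein gene, was at 317, 282 and 186 TPM, so that Uqcrfs1 and Uqcrc1 were both lowest in library 3.

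The transcripts of complex IV were those of the isoforms in general use. The regulatory subunit gene Cox4i1 (chromosome 8, 120668222 to 120674207, plus strand) was the highest with 635, 722 and 797 TPM, followed by Cox6b1, which lies on the intermembrane side where cytochrome c docks, with 544, 602 and 670 TPM, and Cox6c with 453, 425 and 490 TPM. The lowest of the 11 were Cox5a with 192, 178 and 52.1 TPM, Cox7c with 188, 207 and 222 TPM, and Cox7b with 208, 213 and 261 TPM. The place of Cox7c is uncertain, since with the TPM of its pseudogene added, as described below, it came to 550 ± 45.4 TPM. Cox5a, a matrix-side subunit, lay near the other low genes in libraries 1 and 2 and far below them in library 3. Ndufa4, which was first named as a complex I protein and is counted here with complex IV, was at 388, 358 and 469 TPM. The others were Cox5b with 390, 403 and 392 TPM, Cox6a1 with 409, 418 and 354 TPM, Cox8a with 398, 433 and 286 TPM, and Cox7a2 with 227, 233 and 281 TPM.

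The genes for tissue-restricted or inducible forms of these subunits were almost silent. Of the 8 genes only Cox6b2, a testis isoform, reached 1 TPM in every library, with 2.44, 1.24 and 2.02 TPM from 13, 6 and 10 reads. Cox7a1, the heart and muscle partner of Cox7a2, had 5, 0 and 6 reads. Cox4i2, a lung and hypoxia-linked isoform, had 3, 2 and 1 reads, and Cox6a2, the muscle form of Cox6a1, had 2, 1.09 and 3.26 expected counts. Cox7b2, Cox8b, Cox8c and Ndufa4l2 had at most 1 read in any library, which is under the floor of 3 counts. That floor stands for 0.51 TPM or less for Cox7b2, 0.81 TPM or less for Cox8b, 0.61 TPM or less for Cox8c and 0.43 TPM or less for Ndufa4l2, and it covers counting error only, since reads are not independent molecules.

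**Figure D2:**
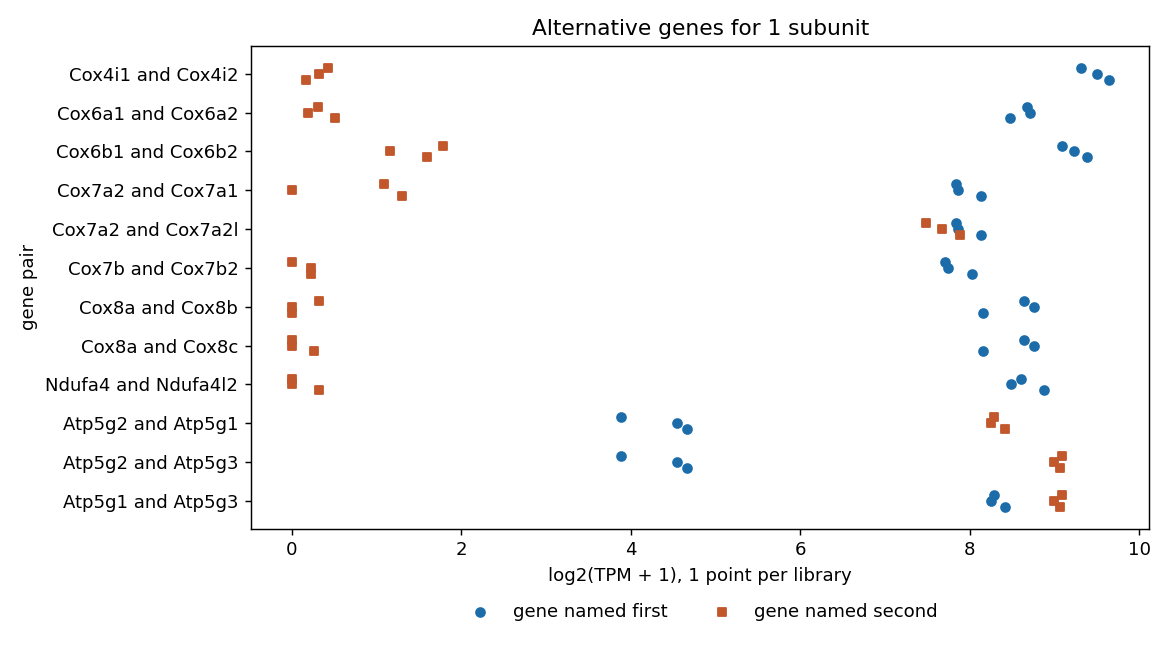
log2(TPM + 1) of both genes of each of 12 pairs, 1 point per library, with circles for the gene named first and squares for the gene named second. The 8 alternative isoforms lie below 2 on this scale and their partners above 7, whereas Cox7a2 and Cox7a2l lie close together and Atp5g2 lies between 3 and 5.

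Pairs were compared as the log2 ratio of TPM + 1, a scale that understates the ratio of a gene near 0 and, for genes with 3 or fewer reads, depends on the added 1. A pair was called different where the sign was the same in all libraries and the mean was larger than 1 and larger than 2 SD. By this rule 10 of 12 pairs differed, among them Atp5g2 against Atp5g1 and Atp5g3, whose limits are given below. Cox4i1 exceeded Cox4i2 by 9.18 ± 0.29, Ndufa4 exceeded Ndufa4l2 by 8.55 ± 0.06, and Cox8a exceeded Cox8b by 8.41 ± 0.31 and Cox8c by 8.43 ± 0.47. Cox6a1 exceeded Cox6a2 by 8.28 ± 0.29, Cox6b1 exceeded Cox6b2 by 7.73 ± 0.39, Cox7b exceeded Cox7b2 by 7.68 ± 0.15, and Cox7a2 exceeded Cox7a1 by 7.15 ± 0.62. Cox7a2l, a relative of Cox7a2 that joins complexes III and IV into supercomplexes, was at 178, 203 and 235 TPM. It was not called different from Cox7a2, with a log2 ratio of 0.27 ± 0.08. In the second gene table, whose counts are not scaled for length, Cox7a2l had 4.98% of its first-table count, and the log2 ratio was 1.46 and passed the rule. In CPM from the first table, a unit that ignores length too, it was -0.92 and did not pass, so the direction turned with the unit.

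In complex V the 5 genes of the F1 part, which includes the catalytic head, had a median of 411 ± 51.1 TPM. The 4 of the peripheral stalk had 363 ± 27.2 TPM, a difference smaller than the larger SD. By library the medians were 373, 391 and 469 TPM for F1 and 356, 340 and 393 TPM for the stalk, so F1 was above in each. With the TPM of processed pseudogenes added, as described below and chosen after seeing the data, the stalk stood at 464 ± 51.5 TPM. F1 was unchanged at 411 TPM, so no order of the 2 blocks held. Atp5b, the beta subunit that holds the catalytic sites (chromosome 10, 128083273 to 128090391, plus strand), was at 1039, 989 and 487 TPM, the highest of all 94 genes in libraries 1 and 2. Its partner alpha subunit Atp5a1 was at 609, 562 and 594 TPM, below Atp5b in libraries 1 and 2 and above it in library 3. Among the other F1 subunits, gamma (Atp5c1) was at 359, 368 and 418 TPM, delta (Atp5d) at 356, 371 and 148 TPM, and epsilon (Atp5e) at 373, 391 and 469 TPM. The sum over the 5 F1 genes was 2736, 2681 and 2117 TPM. Atp5h, a subunit of the peripheral stalk that holds the head still, was at 583, 562 and 702 TPM, and the other stalk genes were Atp5j with 415, 384 and 442 TPM, Atp5f1 with 296.5, 296 and 344 TPM, and Atp5o with 249, 260.3 and 273 TPM. All 4 stalk genes were highest in library 3. The 4 small membrane subunits Atp5j2, Atp5k, Atp5l and Atp5mpl had a median of 230 ± 33.7 TPM, with Atp5k at 158, 147 and 166 TPM and Atp5mpl at 168, 168 and 202 TPM.

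The proton-carrying ring of complex V is made of subunit c, which 3 genes encode. Atp5g3 was at 543, 512 and 535 TPM and Atp5g1 at 312, 305 and 342 TPM, while Atp5g2 was at 13.8, 22.4 and 24.4 TPM. Atp5g2 was below Atp5g1 by a log2 ratio of -3.95 ± 0.39 and below Atp5g3 by -4.68 ± 0.45, and both pairs were called different. Atp5g1 and Atp5g3 were not, with -0.73 ± 0.08. The calls for Atp5g2 use only the TPM given to the gene itself. With pseudogene TPM added, as described below and chosen after seeing the data, Atp5g2 came to 312, 359 and 427 TPM. That is above Atp5g1 in libraries 2 and 3 and below Atp5g3 in every library. The expected counts of Atp5g2 were 114, 177 and 194, lowest in library 1, with a mean posterior SD of 29.6% of the count. A test against counting noise leaves out that error of read assignment, so no difference between libraries is drawn from it for this gene. The low value of Atp5g2 stood beside a high one for Gm10175, annotated as a transcribed processed pseudogene on chromosome 7 (23946646 to 23947290, minus strand), which was given 298, 329 and 382 TPM. Every 50-base stretch of Gm10175, the read length that the effective lengths imply, also occurs in Atp5g2 transcripts, and 87.4% of the stretches of the leading Atp5g2 transcript occur in other genes. The last 90 coding bases before the stop codon are shown because 50-base reads from them cannot be told apart between Atp5g2 and Gm10175. They are given for the 3 genes and for the matching part of Gm10175, from the GENCODE M21 transcripts, with capitals at the 24 positions where the 3 genes differ.
Atp5g1: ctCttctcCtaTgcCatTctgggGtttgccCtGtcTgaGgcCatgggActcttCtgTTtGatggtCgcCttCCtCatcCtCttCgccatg
Atp5g2: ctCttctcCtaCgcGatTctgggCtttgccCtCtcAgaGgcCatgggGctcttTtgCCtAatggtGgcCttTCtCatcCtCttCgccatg
Atp5g3: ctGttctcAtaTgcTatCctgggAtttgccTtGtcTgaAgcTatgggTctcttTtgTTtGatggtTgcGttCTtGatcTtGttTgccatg
Gm10175: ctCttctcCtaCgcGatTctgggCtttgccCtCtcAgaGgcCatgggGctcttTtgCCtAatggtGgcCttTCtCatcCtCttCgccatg

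Over these 90 bases Gm10175 and Atp5g2 differ at 0 positions, whereas Atp5g2 differs from Atp5g1 at 12 and from Atp5g3 at 23. In the second gene table Atp5g2 had 11, 6 and 8 counts, Atp5g1 had 21, 11 and 22 counts where the first table gave it 2266, 2054 and 2301, and Atp5g3 had 899, 866 and 852 counts. There the log2 ratio of Atp5g2 to Atp5g1 was -0.74 and the pair was no longer called, whereas Atp5g1 over Atp5g3, at -5.25, was. The level of Atp5g1 against the other 2 thus depended on the table, while Atp5g3, with no shared 50-base stretch, was the highest of the 3 in both tables.

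Other subunits also had processed pseudogenes with high values. There were 6 pseudogenes whose 50-base stretches all occur in 1 of the subunit genes, and they belong to 5 genes, Atp5g2, Atp5j, Atp5l, Cox7c and Ndufb4. Cox7c was given 188, 207 and 222 TPM and its pseudogene Gm12338 was given 337, 317 and 381 TPM. Atp5l, a small membrane subunit of ATP synthase, was given 252, 256 and 337 TPM and Gm10221 was given 357, 355 and 415 TPM. Ndufb4, the lowest subunit of complex I, was given 51.8, 49.7 and 59.3 TPM and Ndufb4c was given 178, 179 and 193 TPM. With the pseudogenes added, Atp5g2 came to 366 ± 57.8 TPM, Cox7c to 550 ± 45.4 TPM, Atp5l to 657 ± 81.6 TPM, Atp5j to 659 ± 123 TPM and Ndufb4 to 237 ± 13.3 TPM. For Atp5j the pseudogene is Gm11966, whose 201, 179 and 355 TPM rest on a mean of 114 counts. Of the 75 subunits, 33 shared no 50-base stretch with another gene and 28 shared more than 10% of their stretches. Among the 28 was Ndufa12, also low in complex I. It shared 53.8% of its stretches with the processed pseudogene Gm15920, which was given 80.0, 75.2 and 106 TPM. The authors' own posterior SD of the count was above 3% of the count for 4 subunits, Atp5g2 (29.6%), Ndufb4 (5.11%), Cox7c (4.15%) and Atp5l (3.50%).

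**Figure D3:**
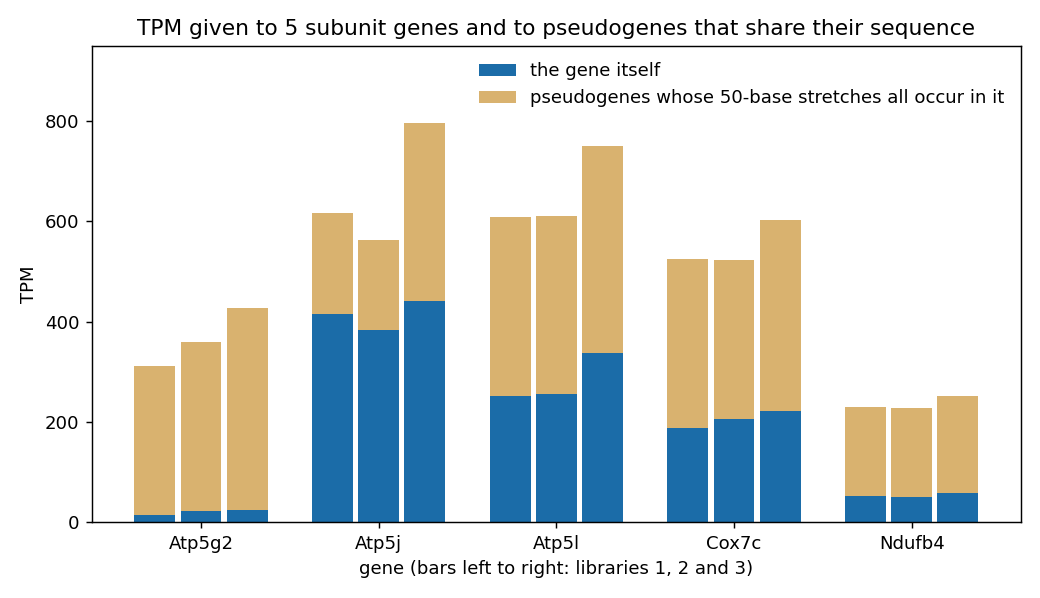
TPM given to 5 subunit genes (lower part of each bar) and to processed pseudogenes whose 50-base stretches all occur in them (upper part), with bars for libraries 1, 2 and 3 from left to right. For Atp5g2 and Ndufb4 most of the TPM was given to the pseudogenes, and for Atp5l and Cox7c more than to the gene itself.

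The deposited transcript estimates gave a median of 84.6% of a subunit gene's TPM to its leading transcript. In 16 of the 75 subunits that transcript is not annotated as protein-coding, with 6 retained introns, 7 processed transcripts and 3 targets of nonsense-mediated decay. Examples are Cox7a2, where a processed transcript took 89.2%, Cox7b, where a retained intron took 80.3%, and Ndufa3, where a nonsense-mediated decay form took 91.5%. These shares are model estimates from short reads, and transcripts of 1 gene overlap in sequence.

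The 3 libraries were then compared with each other. Each gene with a mean of at least 10 counts was tested by a chi-square test against counting noise, with Benjamini-Hochberg adjustment over all 14877 genes tested and a threshold of 0.05. Such differences arise between technical replicates and say nothing of a treatment. The 9 genes not tested were the 8 alternative isoforms and the second Atp5o entry. Of the 85 respiratory chain genes tested, 70 differed between libraries, or 82.4%, against 63.9% of all genes tested. Library 3 was the highest in 54 of the 70 and the lowest in 15. Over all genes tested, 24.3% differed with library 3 highest and 29.8% with library 3 lowest, against 63.5% and 17.6% of these 85. The power of the test grows with the count, and these genes are abundant. Between libraries 1 and 2 alone 20 of 85 differed, or 23.5%, against 30.2% of all genes tested, whereas 61 of 85, or 71.8%, differed between libraries 2 and 3, against 51.4% of all genes tested, and 67 of 86, or 77.9%, between libraries 1 and 3, against 53.9%.

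For most subunits the shift in library 3 was small and upward in the first gene table, with the second described below. The 54 genes that were highest in library 3 had a median log2 difference from the mean of libraries 1 and 2 of 0.23, with a range of 0.06 to 0.48, the top value being that of Atp5g2, whose read assignment is uncertain. These 54 were picked for being highest in library 3, so a positive median follows from the choice. Without that choice, the median was 0.175 over the 85 respiratory chain genes tested and 0.01 over all 14877 genes. All 4 genes of complex II were among the 54, as were 24 of 36 in complex I, 5 of 8 in complex III, 7 of 11 in complex IV and 12 of 16 in complex V. The median log2 difference was 0.18 for the 75 subunits, 0.09 for genes of the mitochondrial ribosome, 0.39 for those of the cytosolic ribosome and 0.42 for the 13 protein-coding genes of the mitochondrial genome. The mitochondrial genome's share of TPM was 3.92, 3.97 and 5.36% in libraries 1, 2 and 3.

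A small set of subunits fell in library 3, and by far more. Uqcrfs1 had 938, 934 and 255 expected counts and a log2 difference of -1.79 (adjusted p = 3.62e-86, edgeR-scaled chi-square). Cox5a had 1508, 1287 and 382 expected counts and -1.78 (adjusted p = 1.57e-126), and the complex I assembly factor Ndufaf6 had 86, 102 and 25 counts and -1.84 (adjusted p = 5.89e-10). In each of these 3 genes library 3 lay far below libraries 1 and 2. The log2 difference of library 2 over library 1 was 0.41 in Ndufaf6, the gene with the fewest counts of the 3, against a median size of 0.07 over the 85 genes. Atp5d fell by 1.27 on the log2 scale, Ndufab1, the mitochondrial acyl carrier protein that is also a subunit of complex I, by 1.26 and Atp5b by 1.15. Ndufab1 shares 38.2% of its 50-base stretches with other genes, and its pseudogene Gm4459 was at 23.9, 26.3 and 1.71 TPM. These 6 genes of 85, or 7.1%, were at under 1/2 of the others in library 3, against 13.9% of all genes tested. Among the other genes that were called and lowest in library 3 were Ndufaf8 (-0.74), the core protein Uqcrc1 (-0.66), Ndufa10 (-0.59), Atp5s (-0.56), Cox8a (-0.52), Ndufa6 (-0.30), Cox6a1 (-0.20) and Cox5b (-0.08). Subunits of 1 enzyme thus moved apart in library 3, for example Cox5a down with Cox4i1 up by 0.26, and Atp5b down with Atp5a1 up by 0.06. The size for Atp5b depended on the table, since its difference was -0.03 in the second gene table, and on the GC correction described below, with which it was -0.43.

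**Figure D4:**
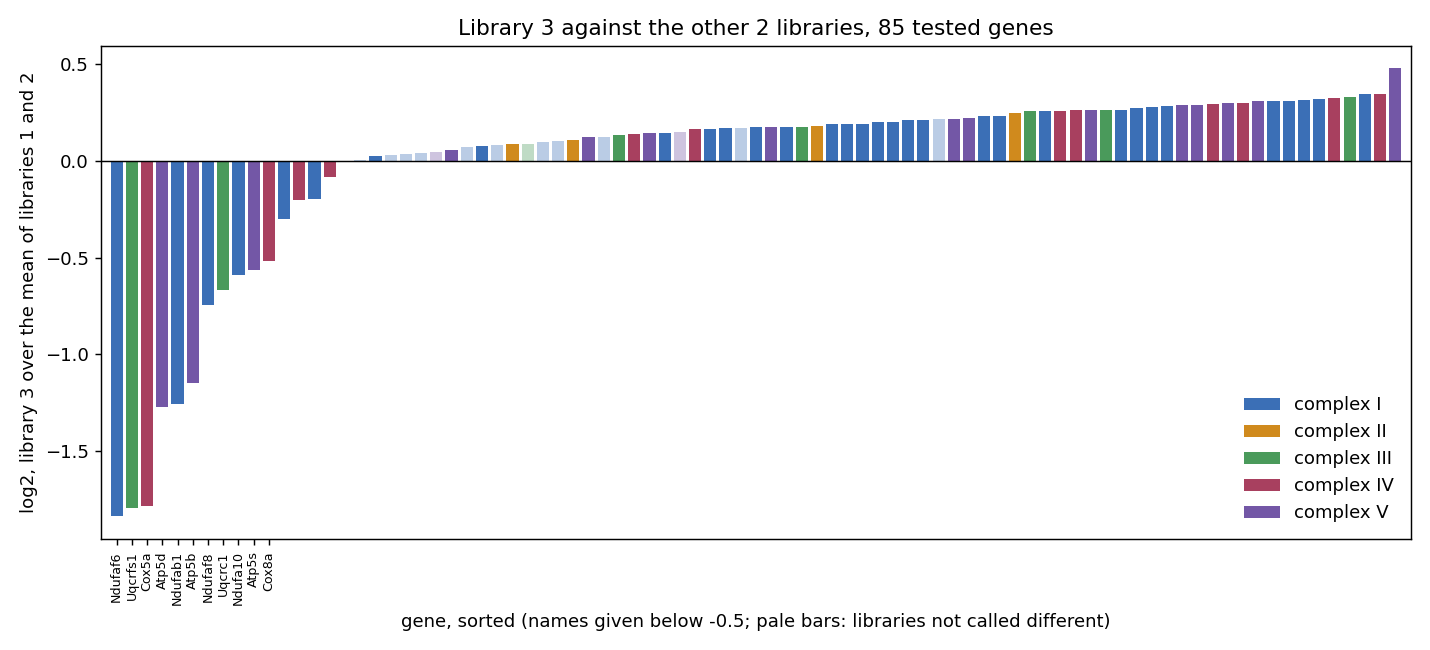
log2 of library 3 over the mean of libraries 1 and 2 for the 85 tested genes, sorted, coloured by complex, with pale bars where the libraries were not called different and names for genes below -0.5. Most bars lie between 0 and 0.35, and 6 genes from complexes I, III, IV and V lie below -1.

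The genes that fell shared a GC-rich stretch more often than not. Local GC content was taken as the highest GC percentage of any 200-base window of the leading transcript, a measure known from earlier results to move with library 3 over all genes. The 15 genes lowest in library 3 had a median local GC of 69.5% and the other 70 tested genes 60.8%. Of the 34 genes with a local GC of 65% or more, 12 were called and lowest in library 3, and of the 51 below 65%, 3 were. The exceptions were Ndufab1 at 44.0%, Ndufa10 at 50.5% and Cox5b at 55.5%, whose leading transcripts are not coding forms. With the leading coding transcript taken for every gene, however small its share, a choice made after seeing the data, 13 of 36 genes at 65% or more and 2 of 49 below were called and lowest in library 3, and the Spearman rho with the log2 difference was -0.45. That choice moved Ndufa10 to 70.0%, on a transcript with 1.62% of its TPM, and it also moved genes that were not lower, with Atp5j at 79.0% and a difference of 0.15 and Cox7a2 at 65.5% and 0.30. With the leading transcripts, the Spearman rho of the log2 difference with local GC was -0.42 across the 85 genes, and across the 11805 protein-coding genes tested it was -0.48. GC-rich genes were not uniformly lower, since Atp5g3 (70.5%) had a difference of 0.04 and Sdhb (69.5%) of 0.11. With the trend on local GC removed, an alternative chosen after seeing the data, the difference was -0.95 for Uqcrfs1, -1.59 for Cox5a, -0.61 for Atp5d, -0.43 for Atp5b and -1.50 for Ndufab1. Of the 15 genes, 12 stayed negative and called and 3 turned positive. Those were Ndufa6 at 0.29 and Cox6a1 at 0.39, both called, and Atp5s at 0.16, which lost its call (adjusted p = 0.385, edgeR-scaled chi-square). Whether the base content causes the difference was not tested.

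**Figure D5:**
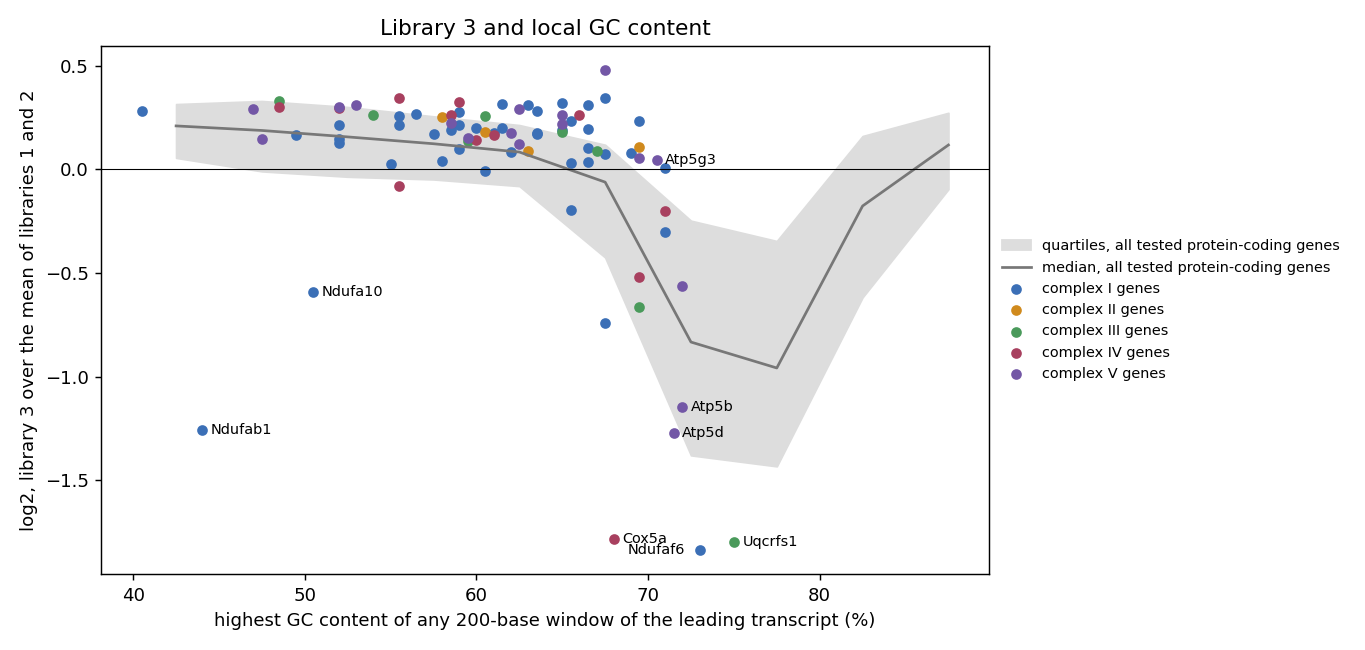
log2 of library 3 over the mean of libraries 1 and 2 against the highest GC content of any 200-base window of the leading transcript, 1 point per respiratory chain gene, with the median (line) and quartiles (band) of all tested protein-coding genes in bins of 5%. The points stay near 0.2 up to about 65% and spread downward above it, with Ndufab1 and Ndufa10 low at lower GC content.

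The GC-richest 90 coding bases of the genes that moved most are set out to show the contrast, for the 3 genes that fell most and the 3 that rose most among the called genes whose leading transcript is coding and whose mean is at least 10 TPM. Of the genes that rose, those with a posterior SD of 3% of the count or more were passed over. G and C are in capitals, and the sequences are from the GENCODE M21 transcripts. The stretch holds 78.9% GC in Uqcrfs1, 80.0% in Cox5a and 77.8% in Atp5d, against 47.8% in Uqcrb, 70.0% in Ndufb6 and 55.6% in Ndufa4. In all 6 genes it lies near the start of the coding sequence, from coding base 8, 2 and 18 in Uqcrfs1, Cox5a and Atp5d and from 3, 27 and 2 in Uqcrb, Ndufb6 and Ndufa4.
Uqcrfs1: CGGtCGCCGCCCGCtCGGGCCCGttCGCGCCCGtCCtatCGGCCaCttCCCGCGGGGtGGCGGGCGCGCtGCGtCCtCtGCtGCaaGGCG
Cox5a: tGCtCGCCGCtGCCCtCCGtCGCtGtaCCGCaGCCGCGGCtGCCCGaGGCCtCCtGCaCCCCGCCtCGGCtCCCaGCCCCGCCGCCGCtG
Atp5d: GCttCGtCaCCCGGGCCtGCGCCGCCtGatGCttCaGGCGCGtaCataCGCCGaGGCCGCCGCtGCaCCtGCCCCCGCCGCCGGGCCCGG
Uqcrb: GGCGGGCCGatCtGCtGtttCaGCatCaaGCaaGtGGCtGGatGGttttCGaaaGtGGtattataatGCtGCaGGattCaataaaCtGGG
Ndufb6: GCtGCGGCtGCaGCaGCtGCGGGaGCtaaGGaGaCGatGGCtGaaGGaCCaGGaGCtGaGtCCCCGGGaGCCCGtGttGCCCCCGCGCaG
Ndufa4: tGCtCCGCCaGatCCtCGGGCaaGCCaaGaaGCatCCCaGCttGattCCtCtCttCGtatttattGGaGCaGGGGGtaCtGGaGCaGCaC

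The second gene table, which holds whole counts for GENCODE M4, was used as another view of the same libraries. It had a row for 93 of the 94 genes, and the median count was 29.9% of that in the first table. In 11 genes it was below 10%, among them Atp5g1, Atp5l, Ndufab1 and Cox7c. In it 35 of 84 genes differed between libraries, or 41.7%, against 56.8% of all genes tested there. Of the 84, 26 were called with library 3 highest and 8 with library 3 lowest. Over all 10936 genes tested there, 2377 were called with library 3 highest and 3382 with library 3 lowest. The fall of Uqcrfs1 was as large as in the first table, with 562, 551 and 143 counts and a log2 difference of -1.80 (adjusted p = 1.65e-48, edgeR-scaled chi-square), and Cox5a had 568, 528 and 202 counts and -1.28 (adjusted p = 9.38e-31). Atp5b had 3060, 3040 and 2681 counts, a log2 difference of -0.03 against -1.15 in the first table. Of the 15 genes lowest in library 3 in the first table, 13 had a negative difference in the second and 9 were also called there. The 9 include Atp5b, whose call there came with a difference of only -0.03. Ndufab1 was not called there (adjusted p = 0.224, edgeR-scaled chi-square).

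The nuclear genes can be set beside those of the mitochondrial genome, summed over each complex. In complex IV the 3 mitochondrial genes came to 14114, 12400 and 17680 TPM and the 11 nuclear ones to 4033, 4192 and 4274 TPM. In complex I the 7 mitochondrial genes came to 4011, 4617 and 6002 TPM, below the 6224, 6220 and 6693 TPM of the 36 nuclear ones. The mitochondrial over nuclear ratio of the mean sums was 0.76 in complex I, 1.04 in complex V, 1.75 in complex III and 3.54 in complex IV. The nuclear sums hold only genes found by the name rule, so any other nuclear subunit is left out. They also leave out the TPM given to pseudogenes of Atp5g2, Atp5j, Atp5l, Cox7c and Ndufb4. No order of the 2 sums is therefore drawn for complex V.

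Genes that help build the complexes stood well below the subunits. Over 49 assembly factors of complexes I to V the median was 35.3 ± 2.40 TPM, and all were detected. Ndufaf1 to Ndufaf8 had a median of 31.0 ± 1.85 TPM, led by Ndufaf8 with 82.0, 96.0 and 51.8 TPM and Ndufaf3 with 60.4, 67.5 and 60.3 TPM, and ended by Ndufaf6 with 8.49, 9.32 and 2.24 TPM. Of the 49 assembly factors 31 differed between libraries, or 63.3%, near the 63.9% of all genes tested. Of the 49, 15 differed with library 3 lowest, or 30.6%, against 29.8% of all genes tested. Another 14 differed with library 3 highest, or 28.6%, against 24.3%. Cox17, the copper chaperone of complex IV, was the highest with 165, 174 and 211 TPM. Uqcc2 of complex III stood at 88.9 ± 5.37 TPM, Sdhaf2, which attaches the flavin to Sdha, at 78.9 ± 4.13 TPM and Atpaf2 of complex V at 38.6 ± 0.34 TPM. The other complex V factors, Atpaf1 with 29.2, 22.7 and 9.48 TPM and Tmem70 with 24.8, 24.1 and 7.50 TPM, differed between libraries and were lowest in library 3.

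Around the chain, genes that feed or drain it were also read. Cycs, the somatic cytochrome c gene, stood at 20.3 ± 1.95 TPM, while the testis form Cyct had 0 counts. Etfb and Etfa, which deliver electrons from fatty acid oxidation, were at 121 ± 6.66 and 102 ± 7.09 TPM. Among 11 exchange carriers and uncouplers, Ucp2, an inner membrane carrier of the uncoupling protein family, was the highest at 1428, 1375 and 1399 TPM, above every nuclear subunit gene, and Ucp1 had 0 counts. Slc25a5, an ADP and ATP exchanger, was at 573, 554 and 664 TPM, and Slc25a3, the phosphate carrier, at 283, 310 and 121 TPM. All 13 citric acid cycle genes were detected, with a median of 113 TPM, and they were led by Mdh2 at 439 ± 22.0 TPM. The 4 supercomplex factors had a median of 148 TPM, with Higd2a at 159 ± 15.2 TPM next to Cox7a2l.

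The 15 regulators of mitochondrial biogenesis ran from 0.16 to 100 TPM in the mean, with a median of 27.5 TPM. Tfam, which packages mitochondrial DNA and activates its promoters, stood at 108, 97.6 and 95.2 TPM, and Nrf1, a transcription factor for many respiratory chain genes, at 74.3, 77.0 and 68.6 TPM. Gabpb1, a chain of the ETS factor GABP, was at 71.3, 63.8 and 28.7 TPM. Ppargc1a, the coactivator best known from muscle and brown fat, was at 0.20, 0.21 and 0.06 TPM, whereas its relative Ppargc1b was at 12.2 ± 0.53 TPM. Of the 14 regulators tested 8 differed between libraries, or 57.1% against 63.9% of all genes tested. Of the 14, 7 differed between libraries with library 3 lowest, against 29.8% of all genes tested.

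The promoters of the genes were searched for short motifs of factors linked to respiratory chain genes. RefSeq promoters of the build GRCm38.p6, from 250 bases before to 50 bases after the start, matched 76 of the 94 genes by symbol or synonym. The NRF1 core CGCATGCG, which is its own reverse complement, occurred in 11 of 76 (14.5%), against 2.07% of 27025 genes. The YY1 core AAGATGGC or its reverse complement occurred in 11 of 76 (14.5%), against 3.19% of genes. The ETS core CCGGAAGT, of the kind GABP binds, occurred on either strand in 5 of 76 (6.58%) against 4.31%, the GC box GGGCGG in 46.1% against 38.2%, and TATAAA in 9.21% against 15.7%. The 27025 genes were all those with a RefSeq promoter, whatever their type or expression. No promoters of genes of like expression were searched, so the shares do not show a motif to be particular to these genes. Each motif was counted on its own, overlaps with others included, and a match is a description of letters and not a binding site. The 100 bases before and 20 after the start are shown for 4 genes with the NRF1 or ETS core in capitals.
Uqcr11: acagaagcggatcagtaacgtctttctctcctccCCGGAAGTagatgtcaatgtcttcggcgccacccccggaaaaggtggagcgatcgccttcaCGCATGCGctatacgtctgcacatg
Ndufa8: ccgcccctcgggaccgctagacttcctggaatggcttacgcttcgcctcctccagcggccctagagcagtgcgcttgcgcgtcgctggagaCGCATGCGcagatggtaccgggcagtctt
Ndufa11: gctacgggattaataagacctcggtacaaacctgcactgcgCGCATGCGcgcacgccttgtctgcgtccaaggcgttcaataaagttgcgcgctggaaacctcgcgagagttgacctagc
Uqcrh: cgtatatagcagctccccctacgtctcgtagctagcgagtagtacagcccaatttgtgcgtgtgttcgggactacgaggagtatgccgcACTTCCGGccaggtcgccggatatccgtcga

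These stretches lie at chr10:80406802-80406921 on the minus strand for Uqcr11, chr2:36049319-36049438 on the minus strand for Ndufa8, chr17:56717662-56717781 on the plus strand for Ndufa11 and chr4:116075051-116075170 on the minus strand for Uqcrh. Uqcr11 holds both cores. Ndufa8 stood at 129.8, 121 and 141 TPM and Ndufa11 at 210.4, 200.5 and 238 TPM, and both were highest in library 3.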

How the data were processed

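Per the labels, 3 libraries of polyA RNA sheared on a Covaris instrument are technical replicates of 1 biological replicate, so they formed 1 group and no groups were compared. The authors deposited, per the file headers, expected counts, TPM and FPKM per gene and per transcript for GENCODE M21 on mm10 (annotation and build per the text deposited with the files), a posterior SD of each count, and each transcript's percent of its gene's TPM. A second deposited table holds whole-number counts for GENCODE M4. Neither the aligner nor the counter is named in the labels or files used here. The effective length is length minus 49, which single reads of 50 bases give. Genes and lists were chosen with earlier results of these data known.

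Expected counts were rounded, scaled by edgeR 4.0.16 TMM factors over genes averaging 10 or more counts, and tested by a chi-square test against Poisson counts with Benjamini-Hochberg adjustment. DESeq2 1.42.0 gave other size factors. Ratios used a pseudocount of 1 TPM. The chi-square script was tested on simulated data. The genes named were those of the pairs, the 3 highest and 3 lowest subunits of each complex, those under 1 TPM in a library, the 6 with the largest deviation of 1 library, and the 3 most abundant of each list; others named with a value were chosen after their values were seen. The second table, removal of a GC trend, other detection limits, pseudocounts and denominators, and leaving out each library were tried. Some genes of the set are not reported here by name.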

Additional observations from a re-analysis of the deposited data

How the results depend on the processing

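No paired analysis was possible because there is 1 group. Of 64 alternative values of the main results, which are counts, medians and shares and have no sign, 46 stayed within the limits and 18 moved. The number of genes that differed between libraries, 70, was 35 in the second gene table and 20 to 67 with 1 library left out, lowest without library 3. It was 61 to 81 under the other scalings, count filters and GC corrections. Medians in FPKM were 107, 130, 169, 256 and 225 for complexes I to V. TPM over nuclear protein-coding genes gave 200.1, 243, 318, 480 and 421. Leaving out 1 library moved the complex III median to between 249 and 260.0 TPM. Counting the alternative isoforms lowered the complex IV median to 205 TPM, and adding pseudogene TPM raised that of complex V to 376 TPM, both chosen after seeing the data. The genes' share of TPM, 2.00%, was 2.42% of nuclear protein-coding TPM, 2.09% without mitochondrial genes and 0.964% of expected counts. Of the single pairs, 3 changed their call, all in the second table, where Cox7a2 over Cox7a2l was 1.46, Atp5g2 over Atp5g1 was -0.74 and Atp5g1 over Atp5g3 was -5.25. Signs turned for Cox7a2 over Cox7a2l, which is not called, from 0.27 to -0.92 in CPM of the first table, and for Ndufa6, Cox6a1 and Atp5s against library 3 with the local GC trend removed. With pseudogene TPM added, Atp5g2 stood above Atp5g1 in libraries 2 and 3, and that pair was not called anew. The causes were not tested. With 3 libraries from 1 donor, no value measures variation between animals, and levels of genes with near-identical copies are uncertain.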
